A study of Mus musculus with 10 samples.

Results

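The constant regions of antibody chains and the J chain were followed through 10 RNA sequencing libraries of the aorta of mice. The 10 genes are Ighm, Ighd, Ighg1, Ighg2b, Ighg2c, Ighg3, Igha, Igkc, Iglc1 and Jchain, taken by gene name from the 35667 genes of each count file. All animals were C57BL/6 and 12 weeks old, and 5 libraries were labelled knockout (KO) for Ovgp1, the gene of oviductal glycoprotein 1, and 5 wild type (WT). The study asked about Ovgp1, blood pressure and the vessel wall. The genotype field names Ovgp1 for KO replicate 1 but, for replicates 2 to 5, Ovgp2 to Ovgp5, whereas the titles and the design name Ovgp1 throughout. The labels used here give neither the knockout construct nor its breeding, and no label says whether each library is a separate animal.

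An antibody is built of heavy and light chains, each with a variable region that binds antigen and a constant region. The constant region of the heavy chain sets the class. B cells first make IgM, later along with IgD, and may then switch the heavy chain to an IgG or to IgA by cutting out the DNA between, so that the variable region stays and the class changes. Plasma cells secrete antibody in quantity, and the J chain joins IgM or IgA units into polymers. In healthy arteries such cells are known mainly from the outer layer and the fat around it.

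Some facts of the whole series bear on every value below. Total counts ran from 24434745 to 26694590 in the libraries labelled KO and from 21242030 to 24396394 in those labelled WT. The libraries labelled KO were nearly alike: in 12509 genes averaging 50 counts or more, chi-square divided by its degrees of freedom, about 1 where counting error alone separates libraries, was 1.77 to 3.25 over 10 KO pairs and 11.0 to 154 over 10 WT pairs. The SD of a KO value therefore covers little beyond counting error, and p-values measure only the spread between these libraries. A fit with the KO counts summed into 1 sample takes its spread from WT. It is given beside the calls of antibody genes that passed the count filter. For some other lists it is given as counts or log2 differences. Ovgp1 itself goes against the labels, with 19.4 ± 1.66 CPM (counts scaled by library size) in KO and 3.70 ± 1.10 CPM in WT (SD, n = 5 each), so each direction given here is between libraries by label, not between shown genotypes. The smooth muscle markers summed to 38305 to 38901 CPM in KO and 28041 to 41721 CPM in WT, as the labelled tissue would hold.

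Most of the genes have constant exons of their own, but the IgG genes resemble each other, which matters for how reads divide among them. The first 90 bases of each IgG constant region are shown 5′ to 3′ on the coding strand, which is the minus strand of chromosome 12 (GRCm38), with capitals where a base differs from Ighg2b at the same position.
Ighg2b, chr12:113307844-113307933: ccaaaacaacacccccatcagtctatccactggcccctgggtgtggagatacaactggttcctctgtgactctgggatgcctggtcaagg
Ighg2c, chr12:113288843-113288932: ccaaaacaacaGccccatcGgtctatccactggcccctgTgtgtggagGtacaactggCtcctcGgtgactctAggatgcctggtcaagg
Ighg1, chr12:113330434-113330523: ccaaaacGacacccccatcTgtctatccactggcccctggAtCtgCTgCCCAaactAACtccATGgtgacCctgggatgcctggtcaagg
Ighg3, chr12:113361143-113361232: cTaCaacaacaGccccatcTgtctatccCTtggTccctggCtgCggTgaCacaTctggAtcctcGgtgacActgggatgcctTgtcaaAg
Ighg2c differed from Ighg2b at 7 of 90 bases, and Ighg1 and Ighg3 at 17 each. Of all 50-base words in the exons, 5.49% of those of Ighg2c, 4.15% of those of Ighg2b, 1.58% of those of Ighg3 and 0.393% of those of Ighg1 recur in another constant gene. None recur for Ighm, Ighd, Igha, Igkc or Iglc1, or for Jchain. How the authors counted reads that match several genes is not stated in the labels, so the split between Ighg2b and Ighg2c is less certain than the other values.

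RNA of IgM, kappa light chain and J chain was far more abundant in the libraries labelled KO, and the rank of the chains was alike in both groups at the top. The 10 genes together held 291 ± 1.43 CPM in KO and 17.4 ± 7.47 CPM in WT (SD, n = 5 each), a ratio of means of 16.7 given as a description without a test. By library the sum was 293, 292, 290, 290 and 289 CPM in KO replicates 1 to 5 and 8.02, 25.3, 11.0, 21.04 and 21.8 CPM in WT replicates 1 to 5. WT replicates 1 and 3 were the lowest, and they also had the highest mitochondrial shares of counts, 16.2% and 13.2%, against 6.75% to 9.59% in the other WT libraries and 7.61% to 7.88% in KO. The part of this in the result was not tested, but without these WT libraries, a choice made after seeing the data, the log2 ratio was 3.68, against 4.06 with all. In bulk tissue more antibody-making cells and more antibody RNA per cell cannot be told apart.

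Ighm, the IgM heavy chain constant gene (ENSMUSG00000076617; chr12:113418558-113422730, minus strand), had 157, 159, 159, 156 and 156 CPM in KO replicates 1 to 5 and 4.35, 11.9, 7.64, 11.6 and 11.2 CPM in WT replicates 1 to 5. Every KO library lay above every WT library, and the WT values spread over a wider ratio than the KO values. By the quasi-likelihood test of edgeR the log2 difference was 4.07 (SE 0.22, adjusted p = 4.60e-06), a fold of 16.8 with a 95% interval of 11.9 to 23.6. With KO as 1 sample the log2 difference was 4.07 (95% interval 3.17 to 4.97) and the adjusted p 0.0413. That call rested on the WT set: leaving out WT replicate 1 gave an adjusted p of 0.00776, and leaving out WT replicates 2 to 5 in turn gave 0.167, 0.157, 0.119 and 0.271.

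Igkc, which encodes the constant region of the kappa light chain (ENSMUSG00000076609; chr6:70726435-70726966, plus strand, 1 exon), had 97.4, 95.4, 92.96, 96.1 and 96.3 CPM in KO and 1.90, 9.92, 2.20, 6.50 and 7.80 CPM in WT, in replicate order. The groups did not overlap, and WT replicates 1 and 3 were again the lowest. The log2 difference was 4.06 (SE 0.37, edgeR adjusted p = 0.000162). With KO as 1 sample its 95% interval was 2.55 to 5.59 and the adjusted p 0.337.

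The lambda light chain was scarce. Iglc1, a lambda constant gene, had 2, 1, 0, 4 and 5 counts in KO and 0, 2, 1, 0 and 1 in WT, too few to be tested, and the groups overlapped. Of the counts of Igkc and Iglc1 together, Iglc1 made up 0.093% ± 0.079 in KO and 0.734% ± 0.912 in WT (SD, n = 5 each), a difference that did not pass when libraries were permuted exactly (two-sided permutation p = 0.167). Iglc2, a lambda gene outside the 10, had 9 to 28 counts in KO and 0 to 2 in WT, and Iglc3 had 3 to 5 in KO and 0 to 1 in WT. With both counted, the lambda share was 1.00% in KO and 2.45% in WT (exact permutation p = 0.111). Iglc2 and Iglc3 share 43 of their 50-base words, 7.65% and 10.7% of each, so their separate counts are uncertain.

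Jchain, the polymer-joining chain (ENSMUSG00000067149; chr5:88519809-88527891, minus strand), had 23.3, 22.8, 21.6, 23.9 and 22.2 CPM in KO replicates 1 to 5 and 0.59, 2.27, 0.45, 1.61 and 1.86 CPM in WT replicates 1 to 5. All KO libraries were above all WT libraries. The log2 difference was 4.05 (SE 0.30, edgeR adjusted p = 3.55e-05), and with KO as 1 sample its 95% interval was 2.67 to 5.45 and the adjusted p 0.234. Relative to Ighm counts, with 0.5 added to each, Jchain stood at a log2 ratio of -2.79 ± 0.065 in KO and -2.93 ± 0.63 in WT (SD, n = 5 each; exact permutation p = 0.857). Igkc relative to Ighm stood at -0.72 ± 0.035 in KO and -0.92 ± 0.59 in WT (exact permutation p = 0.556). The log2 differences of Ighm, Igkc and Jchain, 4.07, 4.06 and 4.05, lay within 1 SE of each other.

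**Figure D1:**
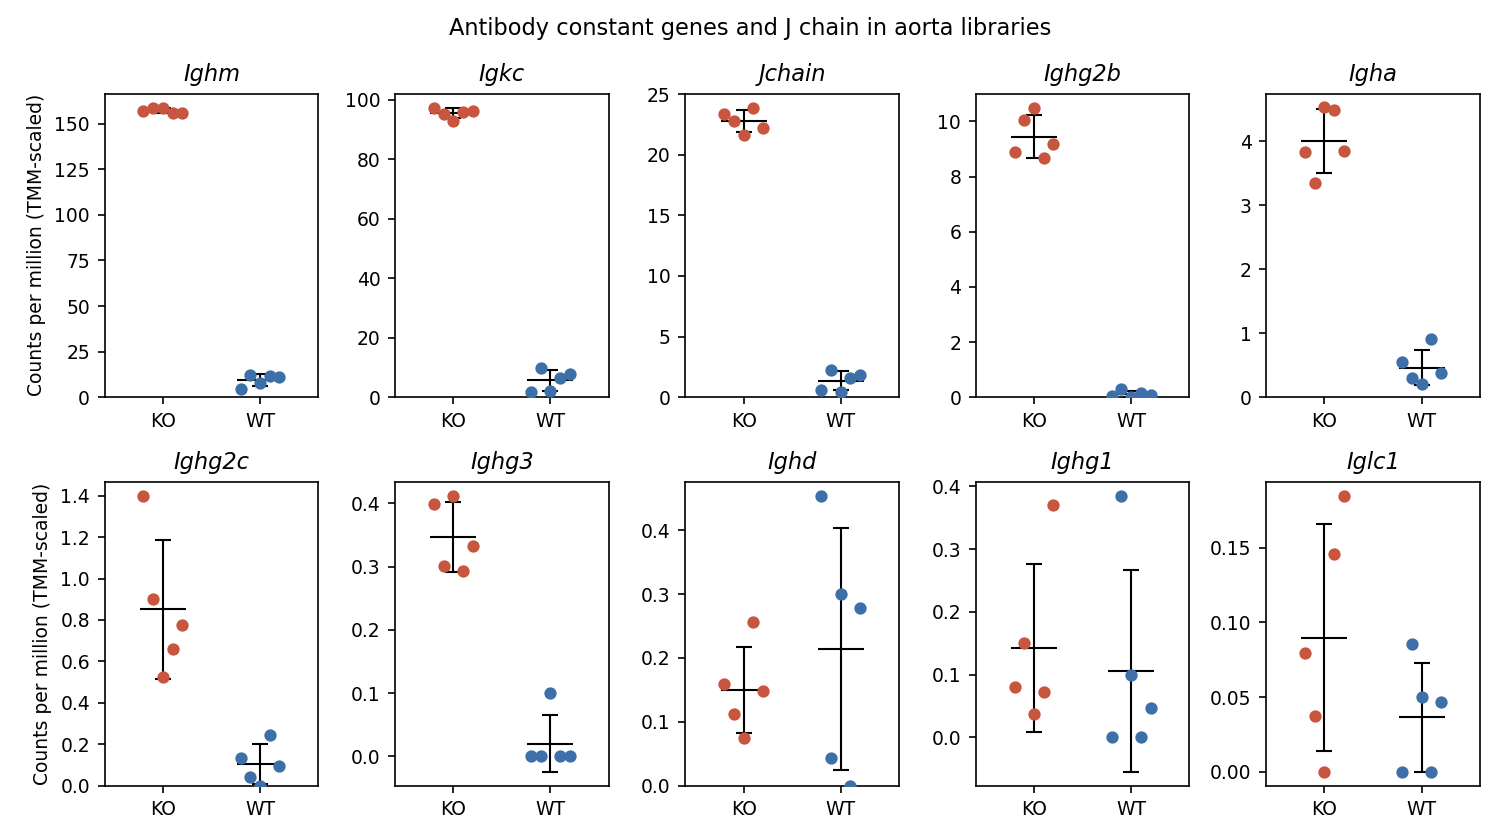
TMM-scaled CPM of each of the 10 genes, 1 point per library, with KO on the left and WT on the right of each panel and black bars for mean and SD (n = 5 each). Vertical scales differ between panels. Ighm is near 157 CPM in every KO library, and the KO and WT points overlap only for Ighd, Ighg1 and Iglc1.

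The Jchain promoter is the 1 promoter of these genes that could be matched in the RefSeq table used here. It is shown from 250 bases before to 50 bases after the start (GRCm38.p6, minus strand), with capitals marking E-boxes, the sequence CANNTG bound by basic helix-loop-helix factors such as those of B cells.
Jchain promoter, chr5:88527848-88528147: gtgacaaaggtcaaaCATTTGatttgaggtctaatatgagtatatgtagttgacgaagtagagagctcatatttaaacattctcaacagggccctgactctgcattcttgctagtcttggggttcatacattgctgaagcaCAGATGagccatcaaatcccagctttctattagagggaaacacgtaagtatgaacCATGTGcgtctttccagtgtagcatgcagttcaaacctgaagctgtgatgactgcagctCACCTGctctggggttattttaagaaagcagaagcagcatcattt
E-boxes begin at -235, -109, -54 and +6 from the start, the last within the transcribed part. The motif reads the same on both strands and is in 72.3% of 32851 promoters of this length. Neither ATGCAAAT, the octamer of variable gene promoters, nor GAGGAA, the core of sites of the myeloid and B cell factor PU.1, is in the window on either strand, and these are in 1.74% and 28.3% of promoters. These matches describe letters, not binding.

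Of the switched classes that could be tested, IgG2b differed most. Ighg2b (ENSMUSG00000076613; chr12:113302965-113307933), the heavy chain of IgG2b, had 223, 267, 280, 237 and 248 counts in KO and 1, 7, 0, 4 and 2 counts in WT. The highest WT library was far below the lowest KO library. Ighg2b had 9.45 ± 0.78 CPM in KO and 0.12 ± 0.12 CPM in WT (SD, n = 5 each). By edgeR the fold was 72.5 with a 95% interval of 44.6 to 118. With 1 WT library left out it ran from 59.8, without replicate 3, to 113, without replicate 2, which had the most Ighg2b counts in WT. Without WT replicates 1 and 3 together the fold was 49.6. The log2 difference with all libraries was 6.18 (SE 0.32, edgeR adjusted p = 9.83e-07). With KO as 1 sample it was 6.21 (95% interval 4.75 to 7.67, adjusted p = 0.0413). Here too the call rested on the WT set, with adjusted p-values of 0.145, 0.0471, 0.0514, 0.132 and 0.344 without WT replicates 1 to 5 in turn.

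Igha, the heavy chain of IgA (ENSMUSG00000095079; chr12:113254830-113260236), had 96, 89, 121, 123 and 104 counts in KO and 12, 7, 4, 22 and 8 in WT. The groups were apart, with WT replicate 4 the highest in WT. Its log2 difference was 3.07 (SE 0.29, edgeR adjusted p = 0.000112). With KO as 1 sample the 95% interval was 1.84 to 4.34 and the adjusted p 0.384.

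Ighg2c, the form of IgG2 that C57BL/6 mice carry in place of IgG2a (ENSMUSG00000076612; chr12:113285325-113288932), had 35, 24, 14, 18 and 21 counts in KO and 3, 1, 0, 6 and 2 in WT. KO replicate 1 was the highest, and no WT library reached the lowest KO library. The log2 difference was 2.93 (SE 0.51, edgeR adjusted p = 0.00371), and with KO as 1 sample the 95% interval was 1.20 to 4.69 and the adjusted p 0.951. The fold was 7.60 with all libraries. With 1 WT library left out it ran from 6.27, without replicate 3, to 11.5, without replicate 4.

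The other heavy chains were near the limit of detection, 3 counts per library. Ighg3, of IgG3, had 10, 8, 11, 8 and 9 counts in KO and 0, 0, 2, 0 and 0 in WT, and the groups did not overlap. It was too low for the filter, and in a fit without the filter, where 5.52% of 35667 genes passed, its log2 difference was 3.97 (edgeR adjusted p = 0.000574). KO was not summed into 1 sample in that fit. Ighg1, of IgG1, had 2, 4, 1, 2 and 10 counts in KO and 0, 9, 2, 0 and 1 in WT. The high value in WT replicate 2 lay within the KO range. Ighd, of IgD, which naive B cells carry beside IgM, had 4, 3, 2, 7 and 4 counts in KO and 10, 1, 6, 0 and 6 in WT. Its highest value was in WT replicate 1, which had the lowest Ighm. In the fit without the filter Ighd had a log2 difference of -0.42 (95% interval -1.72 to 0.89, adjusted p = 0.730), Ighg1 one of 0.44 (-1.21 to 2.09, adjusted p = 0.781) and Iglc1 one of 1.25 (-0.79 to 3.29, adjusted p = 0.460). Ighe, the IgE gene and not among the 10, had 0 to 2 counts in each library of both groups.

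Of the 10 genes, 7 had all KO libraries above all WT libraries and 3 overlapped. Among the members that passed the count filter it was 6 of 6, against 7.38% of all 15710 tested genes. The filter passed 6 of the 10, and each of these was called higher, beside 6.84% of tested genes called higher, 7.43% called lower and 14.3% called in either direction. Ighg2b and Ighg2c had at least 10 counts only in KO, and Igha in 5 KO but 2 WT libraries, so these genes could be tested only by being high in KO, and the 6 calls are a description and not support. With KO as 1 sample the log2 differences of these 6 ran from 2.95 for Ighg2c to 6.21 for Ighg2b, with wider intervals and fewer calls.

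**Figure D2:**
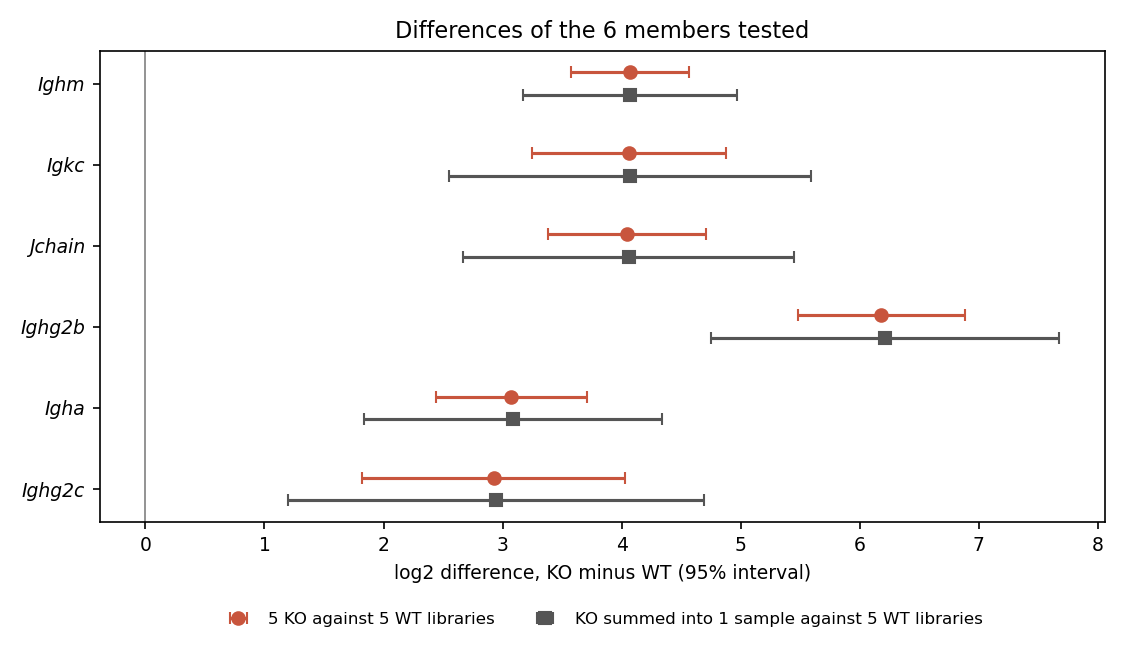
Log2 difference of KO minus WT for the 6 genes that passed the count filter, with 95% intervals, for 5 KO against 5 WT libraries (circles) and for KO summed into 1 sample against 5 WT libraries (squares). The estimates are nearly the same in both fits, from 2.93 for Ighg2c to 6.18 for Ighg2b with 5 libraries each, and the intervals are wider with KO as 1 sample.

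Expressed per kilobase of exon, so that genes can be set side by side, the level in KO was 180 ± 3.09 CPM per kb for Igkc, 83.4 ± 0.77 for Ighm, 9.04 ± 0.35 for Jchain, 3.53 ± 0.29 for Ighg2b, 1.503 ± 0.19 for Igha and 0.64 ± 0.25 for Ighg2c (SD, n = 5). Below these, Iglc1, Ighg3, Ighd and Ighg1 lay at 0.055 to 0.20 CPM per kb, with overlapping ranges between neighbours. In WT the order began likewise with Igkc at 10.6 ± 6.62 CPM per kb, Ighm at 4.96 ± 1.74 and Jchain at 0.54 ± 0.32. Igkc and Ighm overlapped there, as did Jchain and Igha at 0.17 ± 0.10. Ighg2b, the fourth in KO, was at 0.045 ± 0.044 CPM per kb in WT, among the genes at the detection limit.

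The class make-up was then taken within each library, as the share of each gene in the counts of all 7 heavy chain genes. These counts numbered 4308 to 4671 per library in KO and 122 to 314 in WT, so single WT shares are imprecise. IgM made up most of the counts in both groups, with Ighm at 91.3% ± 0.28 in KO and 88.9% ± 5.82 in WT (SD, n = 5 each), a difference of 2.40 percentage points (exact permutation p = 0.619, the same adjusted over the 4 classes compared). In WT replicate 1 the share was 78.7% (exact binomial 95% interval 70.4% to 85.6%), and in the other WT libraries 89.8% to 92.7%, around the KO values. Without WT replicate 1 the sign turned, to -0.16 points.

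Ighg2b took a larger part of the heavy chain counts in KO. Its share was 5.18%, 5.79%, 5.99%, 5.09% and 5.38% in KO replicates 1 to 5 and 0.820%, 2.30%, 0%, 1.27% and 0.766% in WT replicates 1 to 5. The KO shares lay above all WT shares, by 4.45 percentage points on average (exact permutation p = 0.00794, the lower limit for 5 against 5 libraries, and 0.0317 adjusted over 4 classes). A class was tested where 1 group averaged at least 10 counts, which Ighg2b met only in KO, and by which Ighd, Ighg1 and Ighg3 were left untested. The 0 of 167 counts in WT replicate 3 allows a share of up to 2.19% by the exact binomial interval. Summed over libraries, 1255 of 22860 counts (5.49%, 95% interval 5.20% to 5.79%) were Ighg2b in KO and 14 of 1168 (1.20%, 0.657% to 2.003%) in WT. These intervals cover counting error only. With the KO counts pooled to 1 value, the difference was 4.46 points and the exact permutation p was 0.167, the lower limit for 1 against 5.

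The other classes did not pass the same test. Igha held 2.33% ± 0.29 in KO and 4.92% ± 3.36 in WT (SD, n = 5 each; exact permutation p = 0.0794, adjusted 0.159), with WT replicates 1 and 4 at 9.84% and 7.01%. The share of Ighg2c was 0.49% ± 0.20 in KO and 1.09% ± 1.05 in WT (exact permutation p = 0.341, adjusted 0.455). Ighd, too low for the test, made up 20 of 22860 summed counts in KO (0.0875%, 95% interval 0.0534% to 0.135%) and 23 of 1168 in WT (1.97%, 1.25% to 2.94%). In WT replicates 1 and 3 it reached 8.20% and 3.59%, from 10 and 6 counts.

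**Figure D3:**
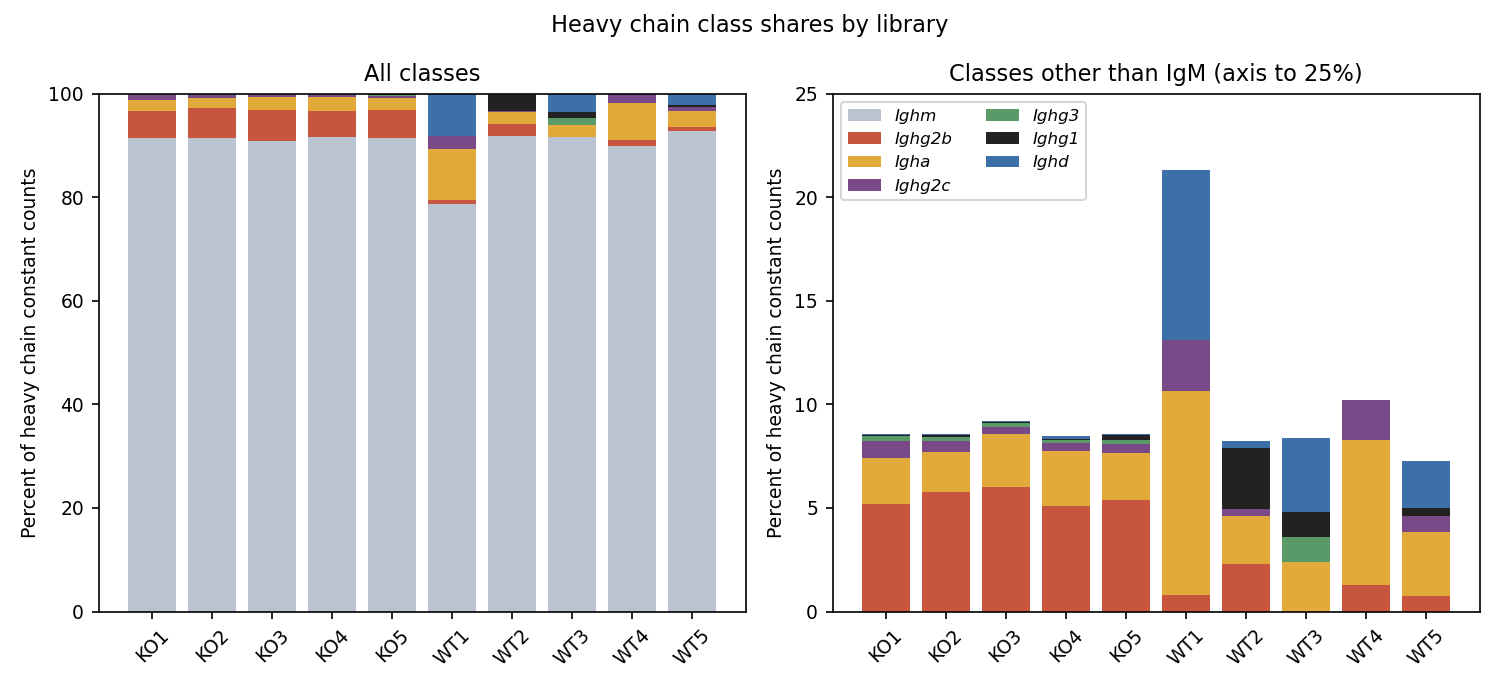
Share of each heavy chain constant gene in the counts of all 7, for KO libraries on the left and WT libraries on the right of each panel. The left panel shows all classes and the right panel those other than IgM on an axis to 25%. Ighg2b takes 5.09% to 5.99% in KO and 0% to 2.30% in WT, and WT replicate 1 has the lowest IgM share.

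Variable region genes, 161 in the files, followed the same direction, with 1606 to 1907 counts per library in KO and 45 to 121 in WT. In KO a single kappa gene, Igkv3-2, held 43.3% to 55.0% of kappa variable counts, against 0% to 16.1% in WT, where it had 0 to 15 counts (a gene chosen after its values were seen).

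Genes of B cells themselves were low in all libraries. The shares of tested genes called over the whole table, 6.84% higher and 7.43% lower, are the background to each count of calls in the lists that follow. Of 16 B cell genes, 4 could be tested, with a median log2 difference of 0.65 beside -0.02 over all tested genes, and 2 were higher and 0 lower. Cd79b, a signalling chain of the B cell receptor, had 12 to 21 counts in KO and 2 to 6 in WT (log2 difference 1.79, edgeR adjusted p = 0.00602), whereas its partner chain Cd79a had 6 to 14 in KO and 7 to 21 in WT (-0.61, adjusted p = 0.233). Bank1, a B cell adaptor, was higher by 1.43 (adjusted p = 0.0158), and the kinase gene Blk had -0.13 (adjusted p = 0.881). The defining marker Ms4a1, which encodes CD20, was close to 0 in both groups, at 1 to 6 counts in KO and 0 to 4 in WT. The whole list summed to 3.67 to 5.04 CPM in KO and 1.81 to 4.59 CPM in WT. Pou2af1, a B cell coactivator of octamer factors, had 16, 23, 17, 13 and 9 counts in KO and 0, 1, 0, 0 and 0 in WT. Cr2, a complement receptor of B cells, went the other way, with 2, 1, 2, 2 and 1 counts in KO and 12, 5, 4, 2 and 7 in WT. Both were too low for the filter and are named after their values were seen.

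Of 16 plasma cell genes 13 were tested, 4 higher and 1 lower, with a median log2 difference of 0.11. Sdc1, syndecan-1, a plasma cell surface marker that other cells also make, was higher by 0.82 (edgeR adjusted p = 0.000158), and Tnfrsf13b, a receptor for B cell survival factors, by 0.86 (adjusted p = 0.0227). Txndc5, an oxidoreductase of the secretory pathway, was higher by 0.21 (adjusted p = 0.0157). Mzb1, a chaperone-like protein of antibody-making cells named after its values were seen, was higher by 1.20 (adjusted p = 0.0259), and Xbp1, the transcription factor of antibody secretion that many secretory cells use, fell by 0.27 (adjusted p = 0.00471). Prdm1, the regulator that drives plasma cell formation, had 4 to 13 counts in KO and 2 to 7 in WT, and Tnfrsf17, a survival receptor of plasma cells, 1 to 6 in KO and 0 to 6 in WT. Slamf7, too low for the filter, had 8 to 18 counts in KO and 1 to 5 in WT. Eaf2 had a log2 difference of -0.66 (edgeR adjusted p = 0.0545), with every KO library below every WT library in CPM. Slamf7 and Eaf2 are named after their values were seen. The list summed to 715 to 738 CPM in KO and 677 to 734 CPM in WT, most of it from Txndc5 and Xbp1.

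Genes of antibody gene assembly were low in all libraries. Of 11, 5 were tested, 2 higher and 0 lower: Rag1, which cuts antigen receptor genes for assembly, had 17 to 29 counts in KO and 0 to 11 in WT (log2 difference 2.33, edgeR adjusted p = 0.0115), and Dntt, which adds bases at the joints, 9 to 30 in KO and 1 to 13 in WT (1.77, adjusted p = 0.0440). Of 11 genes of antibody receptors and transport, 8 were tested and 1 was higher, Fcgrt, the receptor that spares IgG from breakdown (0.28, adjusted p = 0.0231). The polymeric receptor Pigr, which carries J chain-linked IgA and IgM across epithelia, had 0 to 1 count in KO and 0 to 4 in WT. Of 13 genes of B cell recruitment and survival, 6 were tested and 1 was higher, the chemokine gene Cxcl12 (0.65, adjusted p = 0.000458), while Cxcl13, which draws B cells into follicles, had -0.32 (adjusted p = 0.675) and Tnfsf13b, encoding the survival factor BAFF, 0.34 (adjusted p = 0.0600). Of 36 tested genes in these 5 lists, 0 were called by edgeR with KO as 1 sample and 5 (Cd79b, Sdc1, Mzb1, Rag1 and Cxcl12) had an unadjusted p under 0.05, beside 3.72% of all tested genes. Cd79b had at least 10 counts only in KO, and Bank1, Rag1, Dntt and Mzb1 had that many in few WT libraries, so these genes too were tested because they were high in KO.

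Markers of some other cells moved in the same libraries, and those of others did so less or not at all. Of 12 tested myeloid genes 2 were higher and 0 lower, and of 6 fibroblast genes 3 and 0. Of 7 fat, 6 endothelial and 5 mast cell and granulocyte genes tested, 0 were called. T cell genes had a median log2 difference of 0.71, with 2 of 11 tested higher, Cd8a (1.69, edgeR adjusted p = 0.0105) and Cd4 (1.00, adjusted p = 0.0206), and summed to 10.2 to 11.7 CPM in KO and 4.09 to 11.1 CPM in WT. Nerve genes had a median of 1.26, with 6 of 10 higher, and summed to 165 to 178 CPM in KO and 117 to 181 CPM in WT. Red cell genes had a median of -3.16, with 5 of 5 tested lower, among them the globin genes Hba-a1 and Hbb-bs, and summed to 19.2 to 21.3 CPM in KO and 65.8 to 327 CPM in WT. Lymph node and lymph vessel genes, of which 5 were tested with a median of -0.07, summed to 30.0 to 35.1 CPM in KO and 21.4 to 48.9 CPM in WT, and the lymph node vessel gene Glycam1 had 0 counts in each KO library and 0 to 2 in WT. With KO as 1 sample the log2 difference was 1.71 for Cd8a, 4.72 for the nerve gene Dbh and -3.33 for Hba-a1. These estimates were close to the 1.69, 4.70 and -3.32 found with 5 libraries on each side. That fit takes its spread from WT alone, and its calls are not compared between lists here. Dbh and Snap25 had at least 10 counts only in KO, and Th and Cd8a had that many in few WT libraries. These genes too were tested because they were high in KO, and Snap25 is named after its values were seen. The part of these cells in the antibody result was not tested.

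**Figure D4:**
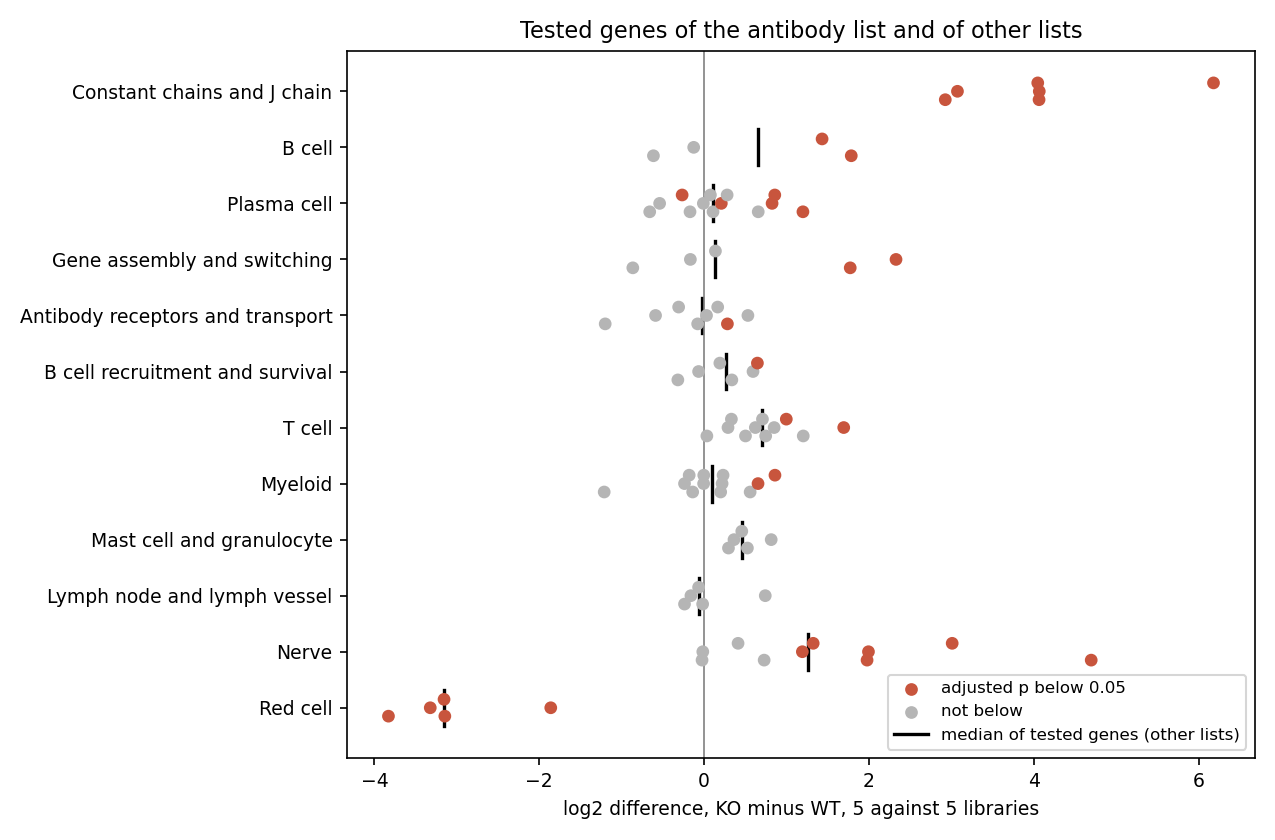
Log2 difference of KO minus WT for each tested gene of the antibody list and of 11 other lists, 5 KO against 5 WT libraries, with red points where the adjusted p was below 0.05 and black lines at the median of the other lists. The antibody genes lie from 2.93 to 6.18, the B cell genes from -0.61 to 1.79, and the red cell genes below 0.

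Profiles over the 10 libraries were compared with that of Ighm as the root mean square difference of log2 CPM centred on the WT mean, over 15709 tested genes. The KO libraries were nearly alike, so a gene is near Ighm only if its difference between the groups is of like size. The ranking therefore does not show that genes varied together among libraries within a group. Among genes that are not immunoglobulin genes the nearest was Jchain at 0.38, followed by Dbh, the enzyme that makes noradrenaline, at 0.49. The next were Gm15446 at 0.77, the processed pseudogene Gm8730 at 1.11 and Htr3a, a serotonin-gated channel, at 1.18. Dbh had 79 to 99 counts in KO and 1 to 7 in WT, so it too was apart between the groups.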

How the data were processed

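RNA sequencing counts of 10 mouse aorta libraries, 5 KO and 5 WT by title, were used as deposited. The deposited files give 1 raw count per Ensembl gene and library, for 35667 genes. Libraries were made with a TruSeq RNA kit, per the labels' protocols, and Bowtie 0.12.2, mm8 and mm9 are named per the submitters' processing notes. The identifiers are of the GRCm38 period, and no source used here states the counting tool, annotation or strand setting. Positions and exon lengths are from GENCODE M21 (35562 identifiers matched), and promoters from RefSeq.

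Genes were tested with the quasi-likelihood test of edgeR 4.0.16 (R 4.3.3; TMM, robust, filterByExpr with minimum count 10 and total 15), with Benjamini-Hochberg adjustment over all tested genes at 0.05. CPM values are TMM-scaled. Shares and ratios were compared by two-sided exact permutation tests (scipy 1.17.1), and binomial intervals are Clopper-Pearson at 95%. The edgeR and DESeq2 fits of 5 against 5 libraries were tested on simulated data with the same spread in both groups, unlike these libraries. The fit with KO summed was not tested in that way. The members and the 17 lists (164 of 166 symbols found; Ighg2a and Fdcsp not analysed here) were chosen with earlier results of these data known. Where 2 rows share a symbol (2 symbols), the row with more counts was used. Named genes are all members, 4 other constant genes, up to 4 genes of smallest p and the 2 most abundant per other list, and the 5 profiles nearest Ighm; other named genes are marked or shown as markers near 0, and some listed genes are not reported here. Binomial intervals cover counting error only, and edgeR intervals include the spread between libraries. Alternatives were KO summed into 1 sample, other size factors, no filter, DESeq2 1.42.0, a replicate block, length-scaled shares, and each library left out.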

Additional observations from a re-analysis of the deposited data

Results flagged for a closer look

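In 34 sets of 5 values checked, 5 held a library whose gap to its nearest neighbour was a large part of the whole range by Dixon's test. The rate of about 1 in 20 sets marked by chance holds for independent normal values. These sets include counts near 0 and shares that depend on each other, so the number marked cannot be read against that rate. Ighm made up 90.8% of heavy chain counts in KO replicate 3, below the other KO libraries. The share was 78.7% in WT replicate 1, below the other WT libraries. The log2 ratio of Jchain to Ighm counts was -4.01 in WT replicate 3, below the other WT libraries. Ighg1 had 0.385 CPM in WT replicate 2, from 9 counts, above the other WT libraries. Ighg3 had 0.0998 CPM in WT replicate 3, from 2 counts, with 0 in the other WT libraries.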

How the results depend on the processing

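The 6 calls held in each of 15 alternatives with 5 libraries, or fewer where left out, on each side: other size factors, no filter, DESeq2, the replicate block, each library left out, and WT replicates 1 and 3 left out together, the last added after seeing the data. With KO as 1 sample 2 of the 6 were called, and with each WT library also left out, likewise added later, 0 to 1. Genes called over the whole table numbered 2242, and 1287 to 2678 with each library left out, 4386 without WT replicates 1 and 3, and 7 with KO as 1 sample (1 to 5 with each WT library left out). The replicate numbers did not pair the libraries (correlation of same-numbered libraries -0.04 to 0.04), and the replicate block gave 1319 genes and the same count of 6 members. The difference in Ighm share turned to -0.16 points without WT replicate 1 and -0.12 without WT replicates 1 and 3. The log2 difference in Jchain per Ighm, 0.14 with all libraries, was -0.13 without WT replicate 3 and -0.19 without both. The Ighg2b share difference was 4.46 points with KO pooled, where the exact permutation test cannot go below 0.167. The Igha share difference, -2.59 points with all libraries, was -3.25 without WT replicate 2 and -3.22 without WT replicate 3 (exact permutation p = 0.0238 each, not adjusted). The lambda share difference was -0.82 points without WT replicate 1 or 4 (exact permutation p = 0.0476). With each library left out in turn, the share differences ran from -0.16 to 3.35 points for Ighm, -3.25 to -1.36 for Igha and -0.82 to -0.27 for lambda, and Jchain per Ighm from -0.13 to 0.28. The causes of these shifts were not tested. With 122 to 314 heavy chain counts per WT library, shares of rare classes in WT are limited by depth.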
